A study of Homo sapiens with 6 samples.

Results

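Circular RNAs (circRNAs) from genes of vesicle traffic and the endosome were followed after long exposure of BEAS-2B cells to cadmium. BEAS-2B is a virus-transformed cell line from the epithelium of the human bronchus. A circRNA is a ring made when splicing links the 3′ end of an exon back to the 5′ end of the same or an earlier exon, and reads across this back-splice junction count it. The host genes were chosen by name. They are genes given as the only host of a circRNA whose symbol is SNX, VPS, RAB, EXOC, COG, TRAPPC, STX, SEC or ARFGEF followed by a number, and PICALM, PIK3C3, EEA1, CLTC and SCYL2, with the VPS13 genes left out. The rule itself uses no measured value, but the members were chosen with earlier results of these data known. The rule gave 234 circRNAs from 84 host genes, out of 9857 circRNAs and 3742 single host genes in all. A name rule also takes in genes of other functions: VPS72 belongs to a chromatin remodelling complex, SEC61A1, SEC62 and SEC63 to protein entry into the endoplasmic reticulum, and SEC11A to the signal peptidase.

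The study compared 3 libraries of cells kept in 2.0 µM cadmium for 20 weeks (cadmium replicates 1 to 3, titled T-BEAS-2B) with 3 libraries of cells kept at 0.0 µM over the same time (control replicates 1 to 3, titled C-BEAS-2B). Both groups grew in the same medium with 10% fetal bovine serum, and neither carries a transgene or deletion that the labels name. Libraries were strand-specific, from RNA depleted of ribosomal RNA and treated with RNase R, an enzyme that degrades linear RNA. Nothing in the labels ties the libraries of a group to separate cultures, so a p-value here reflects the spread among these libraries, which could be technical. The cell type could not be checked from circRNAs: 0 of 13 epithelial marker genes, 0 of 4 leukocyte and 0 of 3 endothelial markers were listed as hosts, and of 9 fibroblast and mesenchymal markers ZEB1 and ZEB2 were.

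Cargo moves between the compartments of a cell in coated vesicles. Clathrin and its adaptors bud vesicles from the plasma membrane, sorting nexins and the retromer return cargo from endosomes, and COPII coats bud vesicles from the endoplasmic reticulum. Rab GTPases mark each compartment, tethering complexes such as exocyst, COG and TRAPP hold an arriving vesicle, and syntaxins drive its fusion. In the airway epithelium this traffic governs the uptake and the surface level of receptors and transporters.

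The back-splice junctions of the circRNAs on which the results turn are shown first. Each line gives the last 30 bases of the exon at the end of the circle in lower case and the first 30 bases of the exon at its start in capitals, so the junction lies where the case changes. The sequences run 5′ to 3′ on the strand of the gene, lie in coding exons, and were taken from GENCODE 29 transcripts on GRCh38. A first set shows PICALM, where the same start exon is joined to different end exons, and 1 circle that starts further downstream.
PICALM hsa_circ_0023942: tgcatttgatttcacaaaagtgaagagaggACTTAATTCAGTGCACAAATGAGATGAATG
PICALM hsa_circ_0000347: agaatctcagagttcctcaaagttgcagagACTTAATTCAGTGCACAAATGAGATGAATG
PICALM hsa_circ_0023936: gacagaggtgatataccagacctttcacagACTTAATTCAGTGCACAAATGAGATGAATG
PICALM hsa_circ_0023923: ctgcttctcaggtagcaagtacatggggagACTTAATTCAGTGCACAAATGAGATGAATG
PICALM hsa_circ_0023919: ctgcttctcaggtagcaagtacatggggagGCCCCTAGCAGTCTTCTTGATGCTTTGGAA

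The next set holds every listed circRNA of SNX6, the host with the smallest p among the 72 tested. It shows that the same 30 bases follow each of the 4 junctions.
SNX6 hsa_circ_0031607: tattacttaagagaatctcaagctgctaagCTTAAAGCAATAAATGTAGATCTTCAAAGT
SNX6 hsa_circ_0031608: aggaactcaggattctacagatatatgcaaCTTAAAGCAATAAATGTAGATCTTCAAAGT
SNX6 novel_circ_0007285: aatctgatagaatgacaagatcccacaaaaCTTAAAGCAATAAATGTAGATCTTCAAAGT
SNX6 hsa_circ_0031610: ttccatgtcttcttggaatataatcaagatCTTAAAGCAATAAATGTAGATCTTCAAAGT

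The last set holds pairs from 1 start exon whose values differ in size, and the main circRNAs of 3 abundant hosts.
RAB3GAP1 hsa_circ_0008036: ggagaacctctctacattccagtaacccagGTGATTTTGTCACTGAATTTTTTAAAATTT
RAB3GAP1 novel_circ_0022530: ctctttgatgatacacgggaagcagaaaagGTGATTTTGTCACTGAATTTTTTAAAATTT
SEC24A hsa_circ_0073992: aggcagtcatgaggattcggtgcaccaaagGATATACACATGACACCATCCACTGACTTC
SEC24A hsa_circ_0073993: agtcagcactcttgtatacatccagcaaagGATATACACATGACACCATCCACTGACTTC
EXOC6B hsa_circ_0009043: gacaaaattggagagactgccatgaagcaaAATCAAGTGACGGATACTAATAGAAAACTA
STX6 hsa_circ_0007905: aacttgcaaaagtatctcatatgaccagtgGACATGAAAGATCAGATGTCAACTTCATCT
ARFGEF2 hsa_circ_0003998: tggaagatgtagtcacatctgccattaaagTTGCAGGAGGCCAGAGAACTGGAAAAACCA

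Values are junction reads per 1000000 junction reads of a library after TMM scaling (CPM), summed over the circRNAs of a host unless a single circRNA is named, and given as mean ± SD over 3 libraries. Library totals ran from 133185 to 225769 junction reads. Each listed circRNA was above 0 in all 3 libraries of a group. A circRNA with a 0 in any control was thus listed through cadmium alone, and the reverse. Such a listing by itself leans the difference toward that group. No count of 1 occurs in the data, so a listed 0 may hide a single read. CPM are relative to all circRNAs of a library, and in bulk RNA fewer cells carrying a circRNA and fewer copies per cell cannot be told apart. Of all junction reads the hosts took 2.14%, 2.13% and 2.04% in the 3 controls and 2.09%, 2.08% and 2.02% in the 3 cadmium libraries. The means were 2.10% ± 0.0552 and 2.06% ± 0.0348 (SD, n = 3 each), and the groups overlapped.

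Some libraries stood apart in another measure. The share of reads at a circRNA's locus that cross the junction, taken as 2 × junction reads over the sum of 2 × junction reads and other reads, was computed over 138 circRNAs of these hosts. In controls 1 to 3 it was 57.4%, 40.3% and 61.7%, and with cadmium 44.7%, 43.1% and 41.7%. Over 6090 circRNAs of the whole table it was 46.1%, 29.2% and 48.9% in controls and 29.98%, 31.7% and 30.3% with cadmium. Control replicates 1 and 3 were the high ones in both, and the hosts lay above the whole table in every library. The sources used here do not state how those other reads were counted. Values against control replicate 2 alone are therefore given beside most of the named results below, with the lone control assumed to vary like the cadmium libraries.

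**Figure D1:**
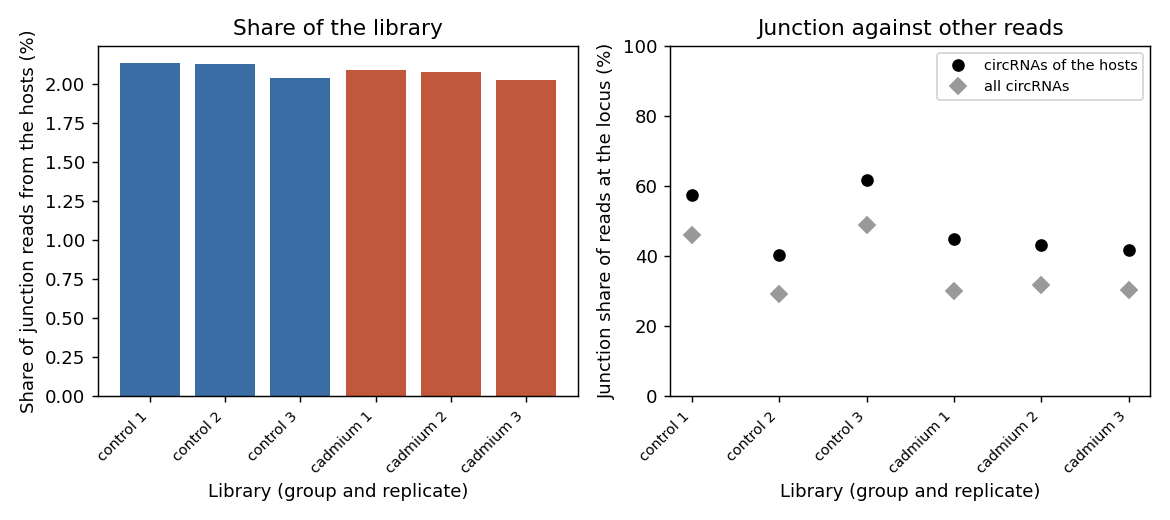
Left, share of each library's junction reads (%) that came from circRNAs of the 84 hosts, with controls in blue and cadmium in red. Right, share of reads crossing the junction (%) for 138 circRNAs of these hosts (black circles) and for 6090 circRNAs of the whole table (grey diamonds). The left bars lie between 2.02% and 2.14%, and control replicates 1 and 3 are the high points on the right.

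With cadmium, 0 of 72 tested hosts passed an adjusted p of 0.05 (edgeR's quasi-likelihood test, Benjamini-Hochberg over 3008 host genes), where 7 host genes of the whole table did (0.233%). DESeq2, which gave an adjusted p for 3 of these hosts, and limma on log2(TPM + 1) also called 0. At an unadjusted p of 0.05, 5 hosts (6.94%) were higher and 9 (12.5%) lower with cadmium, where the shares over all tested hosts were 5.92% and 6.58%. The groups did not overlap for 5 hosts (6.94%) that were higher and 10 (13.9%) that were lower, where the shares over all tested hosts were 9.31% and 10.0%. The median log2 fold change of the 72 hosts was -0.03, with 33 above 0 and 39 below, and over all tested hosts it was 0.00. The remaining 12 hosts had too few reads to be tested: CLTC, COG6, RAB18, RAB1A, RAB22A, RAB5A, SEC16A, SNX12, STX12, TRAPPC11, TRAPPC6B and VPS11.

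**Figure D2:**
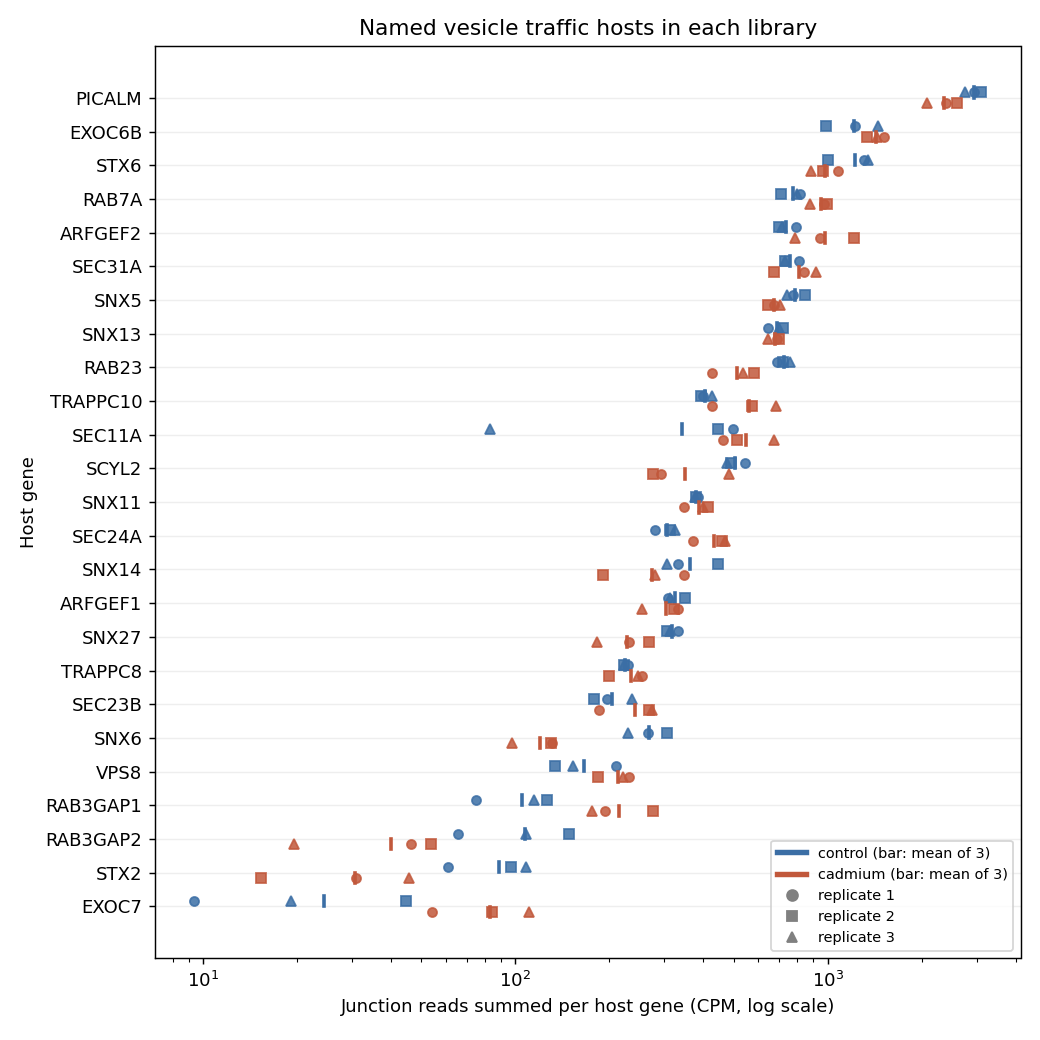
Junction reads summed per host gene (CPM, log axis) in each of the 6 libraries, with controls in blue, cadmium in red, replicates as circles, squares and triangles, and short bars for the mean of 3. SNX6 and RAB3GAP2 sit lower and RAB3GAP1 and EXOC7 higher in every cadmium library than in every control, and control replicate 3 lies far to the left for SEC11A. The circRNAs of RAB3GAP2 were listed through the controls alone and those of EXOC7 through cadmium alone.

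PICALM, the clathrin adaptor that binds membrane and senses its curvature during endocytosis, was the most abundant of the 84 hosts. Its sum was 2945, 3104 and 2764 CPM in the controls, in order of replicate, and 2388, 2595 and 2079 CPM in the cadmium libraries. All cadmium libraries lay below all controls. The log2 fold change was -0.32 ± 0.12 (SE) and did not pass (adjusted p = 0.287 with edgeR), and against control replicate 2 alone it was -0.42 ± 0.18.

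PICALM lies on the minus strand of chromosome 11, and 15 circRNAs of it were listed, the most of any of these hosts. Of these, 8 start at the same splice acceptor, that of exon 2 of 20 (transcript ENST00000393346.7, GRCh38), and end at exons 4 to 17. The largest is hsa_circ_0023942 (chr11:86022367-86031611, exons 2 to 4, 322 exon bases), which gave 32.2% of the PICALM junction reads. It had 206, 151 and 168 junction reads in the controls, in order of replicate, and 84, 81 and 105 in the cadmium libraries. In CPM this was 1101 ± 92.5 in controls against 674 ± 37.7 with cadmium (SD, 3 libraries each), with no overlap. Of the 149 tested circRNAs of these hosts it had the smallest p, and did not pass (adjusted p = 0.259 with edgeR). The log2 fold change was -0.70 ± 0.16 (SE), and against control replicate 2 alone it was -0.81 ± 0.24.

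Of the other tested circRNAs of PICALM, hsa_circ_0023938 (exons 5 to 7) alone lay further from 0, at -1.09 ± 1.01 on 10, 6 and 3 against 2, 5 and 0 reads. hsa_circ_0023919 (chr11:85996826-86003451, exons 9 to 12) was at 574 ± 22.1 CPM in controls and 550 ± 104 with cadmium, a log2 fold change of -0.07 ± 0.19. Among the circles from the exon 2 acceptor, hsa_circ_0023936 (exons 2 to 8) had a log2 fold change of -0.46 ± 0.28, hsa_circ_0000347 (exons 2 to 7) of -0.28 ± 0.24 and hsa_circ_0023923 (exons 2 to 12) of -0.11 ± 0.34. With hsa_circ_0023942 taken out, the sum of the other 14 was 1885 ± 165 CPM in controls and 1703 ± 292 with cadmium, and the groups overlapped. A test for unequal change among the PICALM circRNAs did not pass (edgeR F test, adjusted p = 0.967). The junction share of hsa_circ_0023942 was 53.6%, 48.6% and 60.2% in controls and 40.4%, 36.7% and 42.9% with cadmium, lower in every cadmium library. This share is computed from the same junction reads as the CPM, so it is not an independent measure. Its part in the result was not tested.

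**Figure D3:**
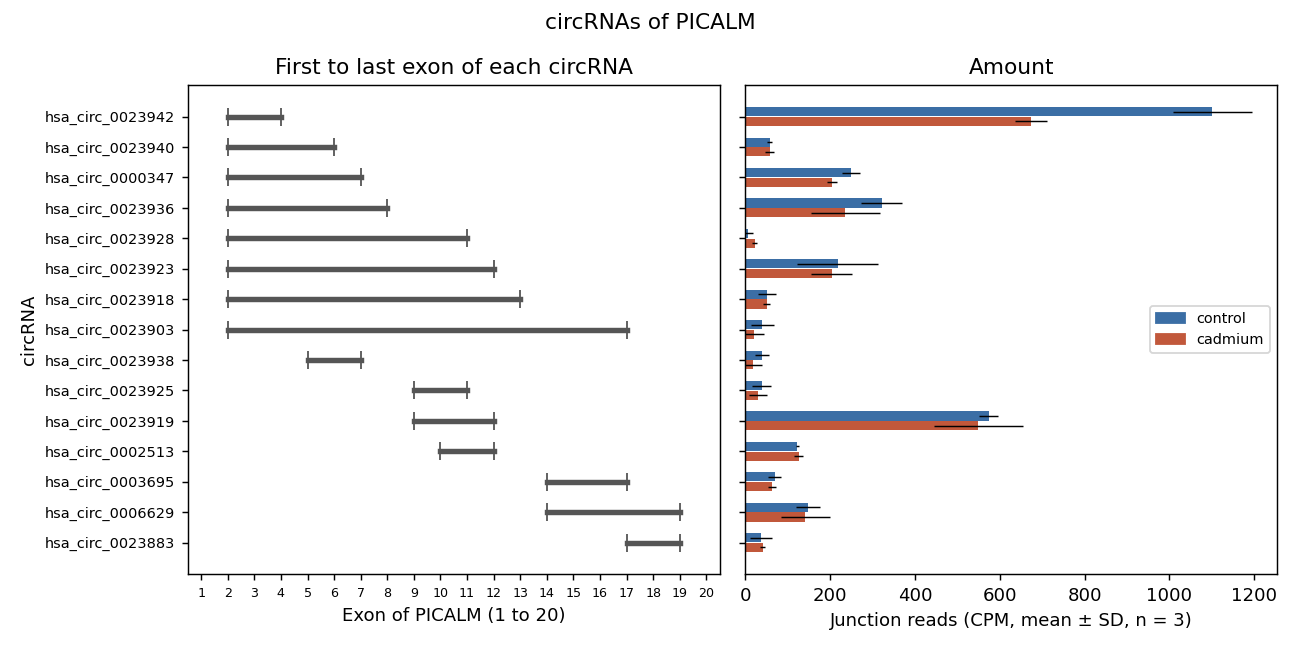
The 15 circRNAs of PICALM, with the first to the last exon of each on the left and junction reads (CPM, mean ± SD, n = 3) on the right, controls in blue and cadmium in red. Of these, 8 start at exon 2, and the pair of bars is furthest apart for hsa_circ_0023942, at 1101 and 674 CPM.

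Other hosts of endocytosis and the early endosome were fewer. SCYL2, a kinase-like protein of clathrin-coated vesicles, was at 543, 491 and 478 CPM in controls and 294, 276 and 482 CPM with cadmium. Cadmium replicates 1 and 2 lay below every control, and cadmium replicate 3 did not. The log2 fold change was -0.51 ± 0.22 (adjusted p = 0.345 with edgeR), and without cadmium replicate 3 it was -0.83 with an adjusted p of 0.101, the smallest of any of these hosts under any setting tried. Control replicate 2 as the lone control gave -0.50 ± 0.35. PIK3C3, the lipid kinase that makes the endosomal phosphoinositide PI3P, was at 400 ± 104 and 396 ± 14.0 CPM. EEA1, an early endosome tether that binds PI3P, was at 35.8 ± 35.1 and 36.6 ± 23.5 CPM. Neither differed by more than the spread between libraries. CLTC, the clathrin heavy chain, had 4, 3 and 3 junction reads in controls and 0 in each cadmium library, too few to be tested. Its only circRNA was listed through the controls alone, so the listing itself leans these values that way.

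Sorting nexins bind endosomal membrane and gather cargo for return to the Golgi or the cell surface. Of 14 sorting nexin hosts 13 were tested, 10 of them with a log2 fold change below 0, and their median was -0.39. Unadjusted p was under 0.05 for 3 of them, SNX6, SNX8 and SNX27, which were lower with cadmium, where 6.58% of all tested hosts were, and 0 passed the adjusted threshold. Over all 3008 tested hosts 1503 log2 fold changes lay below 0.

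SNX6, a sorting nexin with a membrane-bending BAR domain, gave the smallest p of the 72 hosts. It was at 267, 305 and 229 CPM in the controls, in order of replicate, and at 131, 130 and 97.8 CPM in cadmium replicates 1 to 3. Every cadmium library lay below every control, and the mean was 120 ± 19.1 CPM against 267 ± 37.9 CPM. The log2 fold change was -1.16 ± 0.27 (SE), with edgeR adjusted p = 0.186. Leaving out each library in turn gave -1.26 to -1.02, and control replicate 2 alone gave -1.37 ± 0.39.

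The 4 circRNAs of SNX6 lie on chromosome 14, minus strand, and share the acceptor of exon 3 of 14 (transcript ENST00000362031.8). hsa_circ_0031607 (chr14:34575756-34609742, exons 3 to 11) had 14, 26 and 15 junction reads in controls and 5, 7 and 3 with cadmium. For it the log2 fold change was -1.64 ± 0.53 (adjusted p = 0.432 with edgeR), and -2.41 ± 0.57 against control replicate 2 alone. hsa_circ_0031608 (chr14:34586230-34609742, exons 3 to 9) had 21, 7 and 9 reads in controls and 2, 8 and 5 with cadmium, a log2 fold change of -0.97 ± 0.53, and its groups overlapped in CPM. novel_circ_0007285 (chr14:34593045-34609742, exons 3 to 8) had 14, 5 and 7 against 3, 2 and 5 reads, a log2 fold change of -1.05 ± 0.63. hsa_circ_0031610 (chr14:34603348-34609742, exons 3 to 6) had 8, 3 and 5 against 7, 0 and 2 reads and was too low to be tested. The 3 tested circles all had lower means with cadmium. Without hsa_circ_0031607 the sum was 149 ± 46.7 CPM in controls and 82.5 ± 8.91 with cadmium, with no overlap. These are the same reads that gave SNX6 its small p, so they are no separate support. With 0 reads in cadmium replicate 2, hsa_circ_0031610 was listed through the controls alone, which leans its part of the sum toward lower values with cadmium. The junction share of hsa_circ_0031607 was 84.8%, 70.3% and 93.8% in controls and 41.7%, 48.3% and 33.3% with cadmium, lower in every cadmium library. It too is computed from the same junction reads as the CPM, and its part in the result was not tested.

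SNX1, SNX2 and SNX5 act in the same BAR-domain complex as SNX6; they are set beside it here with their values known. SNX5 was at 772, 849 and 739 CPM in controls and 672, 643 and 704 CPM with cadmium, a log2 fold change of -0.22 ± 0.15 (adjusted p = 0.567 with edgeR), with no overlap, and -0.36 ± 0.22 against control replicate 2 alone. SNX1 had a log2 fold change of -0.48 ± 0.43 and SNX2 of -0.65 ± 0.51, and the groups overlapped for both. SNX27, which carries cargo from endosomes to the cell surface with the retromer, was at 332, 305 and 312 CPM in controls and 232, 268 and 182 CPM with cadmium. Its log2 fold change was -0.49 ± 0.22 (adjusted p = 0.383 with edgeR), and -0.45 ± 0.35 against control replicate 2 alone. The circRNA of SNX27 with the smallest p was hsa_circ_0000131 (chr1:151638888-151668635, exons 2 to 7 of 12), with 20, 11 and 25 against 8, 10 and 4 reads and a log2 fold change of -1.05 ± 0.45, and -0.63 ± 0.68 against control replicate 2 alone. SNX8, outside the rule for naming hosts and given because its unadjusted p was under 0.05, was at 66.0 ± 7.95 and 20.8 ± 19.7 CPM. It had 0 reads in cadmium replicate 2, so its circRNAs were listed through the controls alone, which leans this host toward lower values with cadmium.

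SNX11, a short sorting nexin of the endosome, was nearly level. It was at 384, 380 and 376 CPM in controls and 348, 413 and 398 CPM with cadmium, a log2 fold change of 0.02 ± 0.18. Its main circRNA, hsa_circ_0002069 (chr17:48112031-48113401, exons 3 to 5 of 8), gave 93.4% of the sum. SNX13 was at 690 ± 39.1 and 677 ± 27.5 CPM, and SNX14 at 362 ± 74.8 and 273 ± 78.5 CPM with overlap; both have domains of regulators of G-protein signalling. SNX25, whose main circRNA hsa_circ_0004874 spans exons 2 to 5 of 19, was at 462 ± 113 and 444 ± 103 CPM.

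VPS genes encode parts of the retromer, of ESCRT and of tethers at endosomes and lysosomes. Of 12 such hosts 11 were tested, with 5 log2 fold changes above 0 and 6 below, a median of -0.01 and 0 with an unadjusted p under 0.05. VPS35, the core subunit of the retromer, was at 105 ± 15.1 CPM in controls and 161 ± 26.9 with cadmium from a single circRNA, and the groups did not overlap. The fitted log2 fold change was 0.61 ± 0.31 (adjusted p = 0.451 with edgeR). VPS8, a subunit of the early endosomal tether CORVET, was at 166 ± 40.0 and 212 ± 25.4 CPM over 6 circRNAs, with overlap. VPS37A, an ESCRT subunit, was at 121 ± 105 and 109 ± 37.6 CPM, and both of its circRNAs were listed at 0 in control replicate 3 where the other controls imply 10 or more reads.

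Rab GTPases recruit effectors to membranes, and the group here also holds proteins named for binding them. Of 18 hosts 14 were tested, 6 with a log2 fold change above 0 and 8 below, with a median of -0.03. RAB3GAP1 and RAB3GAP2, the catalytic and the non-catalytic subunit of 1 complex, lay on opposite sides. RAB3GAP1 was at 74.9, 127 and 115 CPM in controls and 193, 276 and 176 CPM with cadmium, higher in every cadmium library. Its log2 fold change was 1.05 ± 0.32 (adjusted p = 0.203 with edgeR), and 0.73 ± 0.45 against control replicate 2 alone. RAB3GAP2 was at 65.5, 149 and 108 CPM in controls and 46.4, 53.6 and 19.6 CPM with cadmium, lower in every cadmium library. Its log2 fold change was -1.40 ± 0.49 (adjusted p = 0.248 with edgeR), and -1.93 ± 0.62 against control replicate 2 alone. The difference between these 2 hosts was not tested. Both circRNAs of RAB3GAP2 had 0 reads in a cadmium library, hsa_circ_0002924 in replicate 2 and hsa_circ_0016508 in replicate 3. They were listed through the controls alone, while novel_circ_0022530 of RAB3GAP1 was listed through cadmium alone. The listing thus leans the 2 hosts toward opposite sides.

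Both circRNAs of RAB3GAP1 start at exon 12 of 24. hsa_circ_0008036 (chr2:135129995-135135932, exons 12 to 17) had 12, 15 and 18 junction reads in controls and 19, 24 and 19 with cadmium, a log2 fold change of 0.70 ± 0.36. novel_circ_0022530 (chr2:135129995-135153876, exons 12 to 19) had 4, 2 and 0 against 6, 12 and 8 reads, a log2 fold change of 2.34 ± 0.81 (adjusted p = 0.432 with edgeR), and 1.99 ± 0.93 against control replicate 2 alone. With 0 reads in control replicate 3, novel_circ_0022530 was listed through cadmium alone, and this leans its fold change upward. A test of unequal change between the 2 did not pass (edgeR F test, adjusted p = 0.804).

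RAB23, a Rab that acts at the primary cilium, was at 688, 722 and 758 CPM in controls and 425, 582 and 534 CPM with cadmium. All cadmium libraries were lower, with a log2 fold change of -0.49 ± 0.16 (adjusted p = 0.238 with edgeR), and -0.51 ± 0.26 against control replicate 2 alone. Its largest circRNA, hsa_circ_0004119 (chr6:57193842-57210445, exons 2 to 6 of 7), had a log2 fold change of -0.60 ± 0.23 (-0.65 ± 0.37 against control replicate 2 alone), and the sum of the other 3 was 404 ± 57.5 CPM in controls and 302 ± 48.6 with cadmium, with overlap. RAB7A, which directs late endosomes to lysosomes, was at 815, 707 and 796 CPM in controls and 974, 995 and 880 CPM with cadmium. All cadmium libraries were higher, with a log2 fold change of 0.29 ± 0.14 (adjusted p = 0.422 with edgeR), and 0.40 ± 0.23 against control replicate 2 alone. RAB6A, a Rab of the Golgi with 1 listed circRNA (hsa_circ_0004596), was at 422 ± 56.3 and 419 ± 47.8 CPM. For RAB3IP, an exchange factor for RAB8, hsa_circ_0000419 (chr12:69800209-69801721, exons 7 to 8 of 11) had 59, 63 and 41 reads in controls and 67, 85 and 70 with cadmium, a log2 fold change of 0.69 ± 0.25 with overlap in CPM, and 0.17 ± 0.31 against control replicate 2 alone. The RAB3IP sum had a log2 fold change of 0.25 ± 0.16 and overlapped. Without hsa_circ_0000419 the sum was 270 ± 40.8 CPM in controls and 173 ± 159 with cadmium, with overlap.

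SEC genes were tested in 10 of 11 hosts, with 7 log2 fold changes above 0, 3 below and a median of 0.18. SEC24A, the COPII subunit that selects cargo leaving the endoplasmic reticulum, was at 281, 313 and 325 CPM in controls and 371, 459 and 469 CPM with cadmium. Every cadmium library lay above every control, with a log2 fold change of 0.51 ± 0.19 (adjusted p = 0.305 with edgeR), and 0.45 ± 0.31 against control replicate 2 alone. Of its 7 circRNAs, 3 start at exon 14 of 23. hsa_circ_0073992 (chr5:134697126-134698057, exons 14 to 15) had 6, 9 and 6 junction reads in controls and 12, 14 and 21 with cadmium. The fitted log2 fold change was 1.38 ± 0.43 (adjusted p = 0.431 with edgeR), and 0.72 ± 0.57 against control replicate 2 alone. hsa_circ_0073993, from the same acceptor to exon 16, had 3, 3 and 2 against 2, 4 and 3 reads and was not tested. Without hsa_circ_0073992 the SEC24A sum was 262 ± 21.9 CPM in controls and 321 ± 38.3 with cadmium, and the groups overlapped.

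The other COPII hosts named here had log2 fold changes nearer 0. SEC31A, part of the outer COPII coat, was at 757 ± 45.6 and 812 ± 126 CPM, a log2 fold change of 0.10 ± 0.16. It holds a pair of circRNAs with the same end and starts 3 bases apart, hsa_circ_0006618 (chr4:82878730-82881940) and hsa_circ_0001421 (chr4:82878730-82881937). hsa_circ_0001421 had 11, 7 and 11 junction reads in controls and 10, 13 and 33 with cadmium, and in CPM every cadmium library lay above every control. Its log2 fold change was 1.18 ± 0.44, 0.58 ± 0.45 without cadmium replicate 3 and 1.31 ± 0.75 against control replicate 2 alone, while that of hsa_circ_0006618 was 0.07. SEC23B, of the inner coat, was at 204 ± 29.2 and 242 ± 49.4 CPM with overlap. SEC16A, which organises the sites where COPII vesicles form, had 0 junction reads in each control and 6, 3 and 4 with cadmium, too few to be tested. Its only circRNA was listed through cadmium alone, so the listing itself leans these values that way.

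SEC11A, the catalytic subunit of the signal peptidase, had a mean of 342 ± 226 CPM in controls and 549 ± 108 with cadmium. The single libraries were at 496, 447 and 82.8 CPM in controls and 464, 513 and 671 CPM with cadmium, so control replicate 3 lay far below the other 5. In that library hsa_circ_0000647 (chr15:84680713-84691644, exons 2 to 4 of 6) was listed at 0, against 98 and 56 junction reads in the other controls and 49, 51 and 92 with cadmium. The log2 fold change was 0.67 ± 0.53 (adjusted p = 0.655 with edgeR), and 0.22 ± 0.21 without control replicate 3 and 0.28 ± 0.30 against control replicate 2 alone. The other circRNA, hsa_circ_0036599, from the same exon 2 acceptor to exon 3, had 8, 4 and 13 against 11, 16 and 11 reads, a log2 fold change of 0.87 ± 0.46.

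ARFGEF1 and ARFGEF2 encode exchange factors that load ARF GTPases at the Golgi and recycling endosome. ARFGEF2 was at 791, 700 and 713 CPM in controls and 943, 1217 and 789 CPM with cadmium, and cadmium replicate 3 lay below the highest control. Its log2 fold change was 0.41 ± 0.17 (adjusted p = 0.334 with edgeR), and 0.46 ± 0.27 against control replicate 2 alone. Of 9 circRNAs, hsa_circ_0003998 (chr20:48953556-48963898, exons 6 to 7 of 39) gave 57.4% and had a log2 fold change of 0.47 ± 0.20, and 0.63 ± 0.32 against control replicate 2 alone. novel_circ_0020653 (chr20:48974766-48976199, exons 13 to 14) had 12, 5 and 9 against 14, 21 and 13 reads and a log2 fold change of 1.17 ± 0.40, and 1.60 ± 0.68 against control replicate 2 alone. novel_circ_0020639 (chr20:48952705-48963898, exons 5 to 7), which ends at the same donor as hsa_circ_0003998, had 15, 5 and 12 against 6, 8 and 0 reads and a log2 fold change of -0.85 ± 0.70. With 0 reads in cadmium replicate 3, novel_circ_0020639 was listed through the controls alone, and this leans its fold change downward. The test of unequal change gave the smallest p of these hosts here and did not pass (edgeR F test, adjusted p = 0.804). ARFGEF1 was at 324 ± 22.7 and 303 ± 42.4 CPM, a log2 fold change of -0.10 ± 0.21.

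Hosts of tethering complexes lay on both sides of 0. EXOC7, the exocyst subunit that binds the plasma membrane, was at 9.36, 44.7 and 19.1 CPM in controls and 54.1, 84.2 and 111 CPM with cadmium, higher in every cadmium library. The fitted log2 fold change was 1.86 ± 0.61 (adjusted p = 0.232 with edgeR), the largest of the 72 hosts. It rested on 2, 6 and 3 junction reads against 7, 11 and 17, and against control replicate 2 alone it was 0.87 ± 0.70. Both EXOC7 circRNAs had 0 reads in a control, hsa_circ_0045774 in replicate 3 and hsa_circ_0045775 in replicate 1. They were thus listed through cadmium alone, so the listing itself leans this host toward higher values with cadmium. EXOC6B, another exocyst subunit and the second most abundant host, was at 1222, 990 and 1446 CPM in controls and 1515, 1340 and 1440 CPM with cadmium. The groups overlapped, and the log2 fold change was 0.23 ± 0.15 (adjusted p = 0.565 with edgeR), and 0.51 ± 0.21 against control replicate 2 alone. A single circRNA, hsa_circ_0009043 (chr2:72718103-72733118, exons 3 to 6 of 22), gave 81.2% of it, at 991 ± 190 and 1247 ± 78.5 CPM, and its fold on the log2 scale was 0.33 ± 0.17 (0.66 ± 0.25 against control replicate 2 alone). All 5 exocyst hosts were tested, with a median log2 fold change of 0.21.

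TRAPPC10, a subunit of the TRAPPII complex of the Golgi, was at 398, 394 and 427 CPM in controls and 425, 574 and 684 CPM with cadmium. Cadmium replicate 1 lay within the controls, and the log2 fold change was 0.47 ± 0.19 (adjusted p = 0.338 with edgeR), and 0.49 ± 0.32 against control replicate 2 alone. TRAPPC8 was at 225 ± 3.64 and 234 ± 30.4 CPM. Of the 6 hosts of the COG complex, a tether within the Golgi, 5 were tested, with 3 log2 fold changes above 0 and 2 below and a median of 0.30. For COG2, hsa_circ_0016867 (chr1:230663141-230671640, exons 4 to 8 of 18) had 42, 18 and 23 junction reads in controls and 11, 10 and 14 with cadmium. The fit gave a log2 fold change of -0.94 ± 0.32 (adjusted p = 0.432 with edgeR) and of -0.69 ± 0.49 against control replicate 2 alone, with no overlap in CPM, while the COG2 sum had a log2 fold change of -0.43 ± 0.28 and overlapped.

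Syntaxins are membrane-anchored SNARE proteins of vesicle fusion. STX6, which acts between endosomes and the Golgi, was the third most abundant host, at 1311, 1005 and 1344 CPM in controls and 1082, 965 and 886 CPM with cadmium. The groups overlapped through control replicate 2, and the log2 fold change was -0.33 ± 0.15 (adjusted p = 0.392 with edgeR), and -0.07 ± 0.22 against control replicate 2 alone. Its circRNA hsa_circ_0007905 (chr1:180984677-180993425, exons 4 to 7 of 8) gave 91.5% of the sum and had a log2 fold change of -0.29 ± 0.16, and -0.04 ± 0.25 against control replicate 2 alone. hsa_circ_0006796, which ends at the same donor and starts at exon 2, had a log2 fold change of -0.81 ± 0.38. STX2, a syntaxin of the plasma membrane, was at 60.9, 96.8 and 108 CPM in controls and 30.9, 15.3 and 45.6 CPM with cadmium, lower in every cadmium library. Its log2 fold change was -1.46 ± 0.52 (adjusted p = 0.255 with edgeR), and -1.63 ± 0.74 against control replicate 2 alone, from 3 circRNAs each too low to be tested. Of these, hsa_circ_0005614 and novel_circ_0004719 had 0 reads in a cadmium library and were listed through the controls alone. The listing thus leans STX2 toward lower values with cadmium. Of 6 syntaxin hosts 5 were tested, with a median of -0.33.

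**Figure D4:**
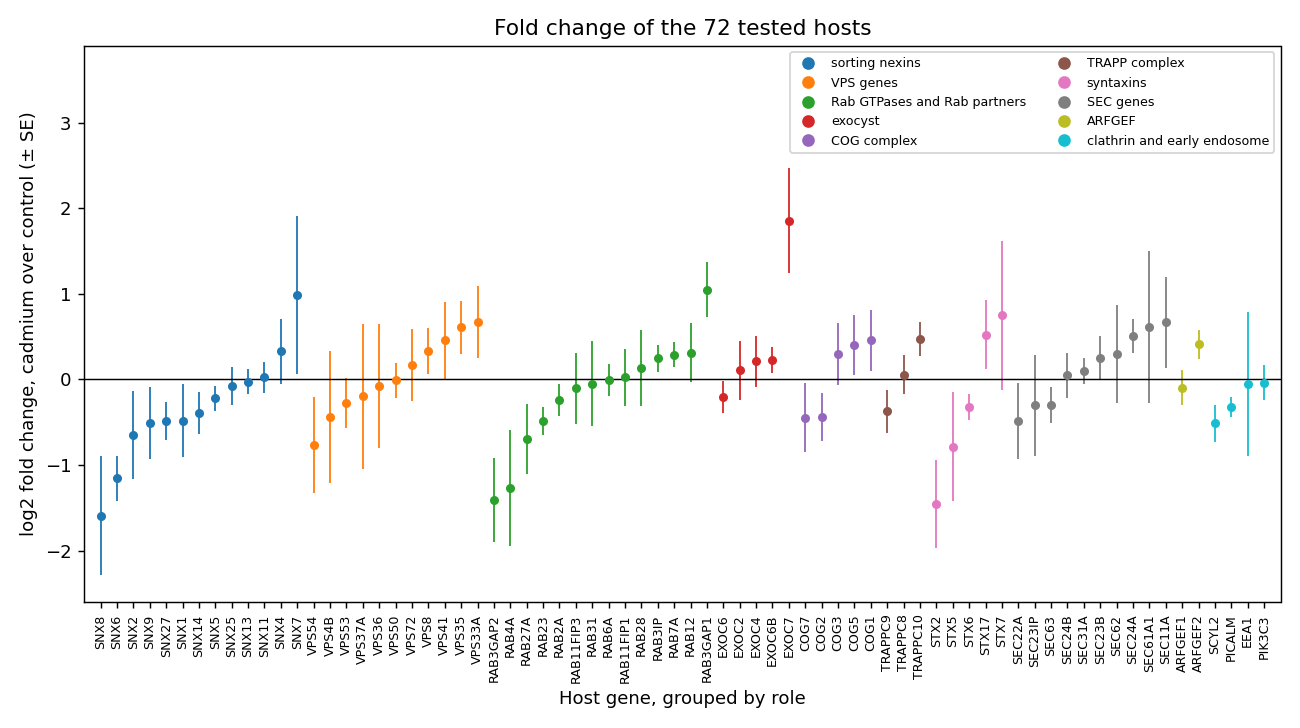
Log2 fold change (cadmium over control, points with ± SE) of the 72 tested hosts, coloured by role and ordered by value within each. Of the 13 sorting nexins 10 lie below 0, SNX8 is the lowest of all at -1.59 and EXOC7 the highest at 1.86, and 0 passed the adjusted threshold. The circRNAs of SNX8 were listed through the controls alone and those of EXOC7 through cadmium alone, which leans both toward these ends.

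Among single circRNAs, 149 of 234 had enough reads to be tested, and 0 passed an adjusted p of 0.05 (edgeR, Benjamini-Hochberg over 6182 circRNAs), where 5 of the whole table did (0.0809%). At an unadjusted p of 0.05, 6 (4.03%) were higher and 8 (5.37%) lower, where the shares over all tested circRNAs were 4.09% and 4.21%. The groups did not overlap for 14 (9.40%) that were higher and 15 (10.1%) that were lower, where the shares over all were 7.41% and 7.94%. DESeq2, which gave an adjusted p for 61 of the 149, and limma also called 0. In the authors' deposited table, 14 of 233 of these circRNAs with a p-value had an unadjusted p under 0.05 (6.01%), 8 higher and 6 lower, against 5.14% over all 9853. In the authors' deposited table the smallest adjusted p of these circRNAs was 0.495, for hsa_circ_0023942, with a log2 fold change of -0.66. The mark of significance in the authors' deposited table falls on 506 circRNAs, all with an unadjusted p under 0.05.

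Whether the circRNAs of 1 host changed unequally was tested over hosts with 2 or more tested circRNAs. Of 39 such hosts 0 passed an adjusted p of 0.05 and 0 had an unadjusted p under 0.05 (edgeR F test), where 0% of all 1347 hosts passed and 5.64% were under the unadjusted bound. The smallest p were those of ARFGEF2, RAB3GAP1 and SEC24A, each with an adjusted p of 0.804. In SNX6 the tested circRNAs lay on 1 side of 0, and in SEC31A, SEC24A and ARFGEF2 they lay on both.

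**Figure D5:**
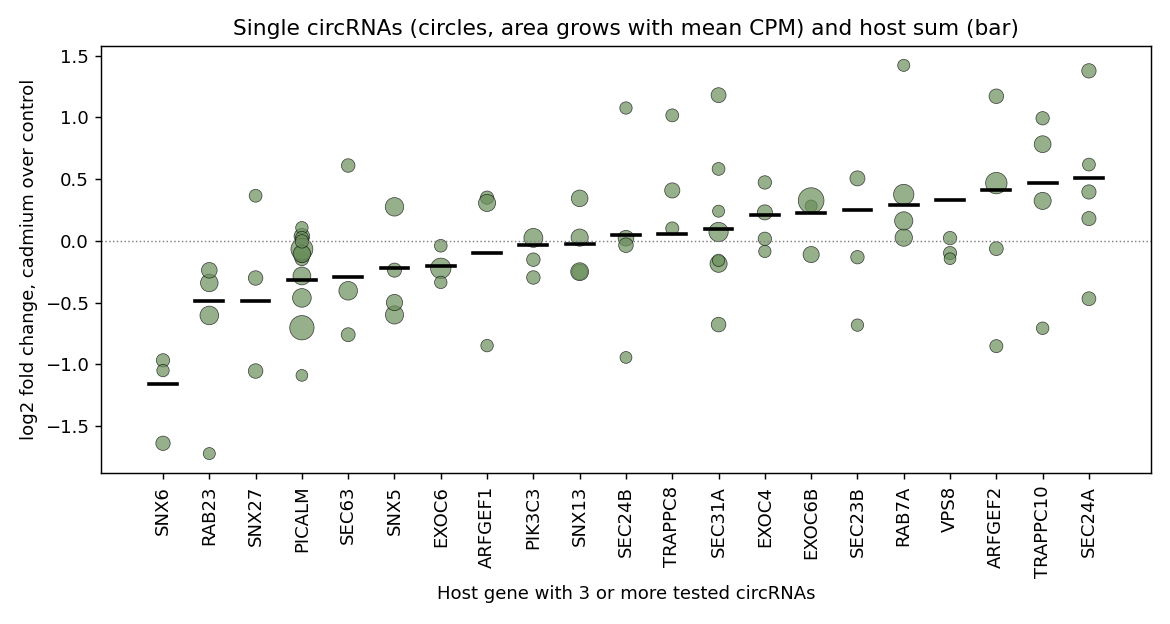
Log2 fold change (cadmium over control) of each tested circRNA (circles, area growing with mean CPM) and of the host sum (bars) for the 21 hosts with 3 or more tested circRNAs, ordered by the sum. The 3 circles of SNX6 all lie below 0, and the largest circle of PICALM, hsa_circ_0023942, lies at -0.70.

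The structure of these circRNAs was compared with that of all circRNAs as a description. A GENCODE 29 transcript with exon bounds at both ends was found for 222 of the 234, and exon numbers come from it; junction reads do not show which exons lie inside a circle. The median circRNA spanned 4 exons and 404 exon bases, where all circRNAs spanned 3 exons and 414 exon bases. The share that starts at exon 2 was 29.7% and 27.4% over all circRNAs. The share of single-exon circles was 0.901% (2 of 222) and 3.35% over all circRNAs (298 of 8906), so the first rests on very few circles. The median intron before the circle was 8386 bases long and the one after it 5980 bases, where the medians over all were 6446 and 5840 bases. Hosts with 1 listed circRNA made up 34.5% of the 84 and 45.7% of all single hosts.

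Of the 55 hosts here with 2 or more circRNAs, 33 (60.0%) had circRNAs that share an acceptor and 24 (43.6%) had circRNAs that share a donor, where these shares over the other hosts were 56.8% and 51.9%. In 11 hosts every circRNA started at 1 acceptor, among them SNX6, SNX8, EXOC6, COG3, RAB3GAP1 and SEC11A. SNX27 used 2 acceptors for its 6 circRNAs, and SNX14 and TRAPPC8 used 5 for 5.

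Traffic genes outside the name rule were read from 8 lists of 241 genes. Of these 115 were listed as hosts and 93 tested, with 0 past the adjusted threshold, 2 higher and 7 lower at an unadjusted p of 0.05, and a median log2 fold change of -0.07. Over all tested hosts the higher and lower shares at that bound were 5.92% and 6.58%. Those with the smallest p were TBC1D14, a Rab regulator of recycling endosomes and autophagy, at 445 ± 27.4 CPM in controls and 281 ± 36.5 with cadmium, and WDFY3, a large PI3P-binding protein of selective autophagy, at 319 ± 27.1 and 198 ± 27.4 CPM. MTMR3, a phosphatase of PI3P, was at 455 ± 62.3 and 299 ± 31.0 CPM. CLINT1, a clathrin adaptor of the Golgi and endosomes, was among the higher ones, at 84.0 ± 21.0 and 143 ± 15.6 CPM. The 24 tested Rab regulators had a median of -0.15, with 1 higher and 4 lower at the unadjusted bound, where the same shares of 5.92% and 6.58% apply to all tested hosts. The 8 tested SNAREs and fusion factors outside the syntaxins had a median of -0.24, with 0 in either direction.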

How the data were processed

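The authors' deposited table gives counts of back-splice junction reads, per the file headers. Its TPM column, as the authors deposited it, is the count over the library total, scaled to 1000000, and served in 1 alternative. The authors' deposited comparison (log2 fold changes and p-values) is quoted as theirs. The authors' annotation table, whose other read columns were used for the junction share, gives positions and host genes. The submitters' processing notes name Bowtie2 2.2.8, Bowtie, DESeq 1.10.1 and hg19, but positions follow GRCh38: 97.8% of exonic starts and 97.9% of ends lie on GENCODE 29 exon bounds. For the circRNA caller, the name is not given in the sources consulted here. Each of the 9857 circRNAs is above 0 in all 3 libraries of a group.

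Reads were summed per single host and tested with edgeR 4.0.16 in R 4.3.3 (TMM, robust quasi-likelihood, filterByExpr with minimum count 5 and minimum total 15, Benjamini-Hochberg adjusted p under 0.05). Single circRNAs were tested in the same way, and unequal change with diffSpliceDGE. Standard errors (SE) were worked back from the F statistic. The tests were tried on simulated counts. Alternatives were RLE factors, library totals, other filters, DESeq2 1.42.0, limma 3.58.1 on log2(TPM + 1), a replicate block, circRNAs of several genes, removal of circRNAs listed at 0 in a library whose group mates imply at least 10 reads, and leaving out each library. Added after seeing the data were the junction share as a covariate and control replicate 2 as the lone control.

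Hosts named are the 6 smallest p in each direction, the 8 most abundant, those with 5 or more circRNAs, and SNX6, SNX11, SEC11A and PICALM; circRNAs named are the 8 most abundant, the 5 smallest p in each direction, those of these 4 hosts and of the 3 hosts with the smallest p for unequal change. Other names were chosen after their values were seen. The members and lists were chosen with earlier results of these data known. Correlations of same-numbered deviations between the groups were 0.0039 to 0.0839, and those of differently numbered ones -0.0501 to 0.0401. The deviations are taken from means of 3 libraries, so these small values do not settle whether replicate numbers pair libraries. Reads carry no molecular identifiers, so they may include copies of 1 molecule.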

Additional observations from a re-analysis of the deposited data

Results flagged for a closer look

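The values below come from entries that the host sums leave out, each above the 3 reads that a count of 0 allows over the 6 libraries. hsa_circ_0002069 of SNX11 has a second entry with 35 junction reads in all, 12, 4 and 5 in controls and 6, 6 and 2 with cadmium. Of circRNAs assigned to more than 1 gene, hsa_circ_0060989 of STX16 and STX16-NPEPL1 has 78 reads in all, hsa_circ_0029062 of VPS33A and AC048338.1 has 63, hsa_circ_0004990 of SNX14 and AL589666.1 has 37, hsa_circ_0003128 of STX16 and STX16-NPEPL1 has 26 and novel_circ_0020852 of STX16-NPEPL1 and NPEPL1 has 23. hsa_circ_0051147 of RAB4B and RAB4B-EGLN2 has 8 reads in all, 0 in each control and 2, 3 and 3 with cadmium.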

How the results depend on the processing

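The count of these hosts, of their circRNAs and of hosts with unequal change past the adjusted threshold was 0 under every alternative run, and their smallest adjusted p under any was 0.101 for hosts and 0.109 for circRNAs. DESeq2 gave an adjusted p for 3 of the 72 hosts and 61 of the 149 circRNAs. Over all host genes the count of 7 became 4 with limma, 3 with control replicate 2 as the lone control and 3 to 13 when 1 library was left out (3 without control replicate 1 or cadmium replicate 2, 13 without cadmium replicate 3). The cause was not tested. With the replicate block, whose numbers are not known to pair the libraries, 6 host genes of all and 0 of these passed.

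Of 422 alternative values for the 25 named hosts 6 changed sign, in 5 hosts with log2 fold changes near 0. Leaving out 1 library gave -0.182 to 0.0210 for ARFGEF1, -0.00306 to 0.209 for SEC31A, -0.0302 to 0.0804 for SNX11, -0.0903 to 0.0105 for SNX13 and -0.0200 to 0.149 for TRAPPC8. Of 238 values for the 16 circRNAs named as most abundant or for the smallest p, 13 changed sign, in 3 circRNAs. The circRNAs named only through their host are outside this count. Leaving out 1 library gave -0.251 to 0.0201 for hsa_circ_0023919 and -0.124 to 0.0620 for hsa_circ_0004596, which was at 0.000526 with limma. hsa_circ_0004874 (-0.00344) was at 0.0100 with RLE factors, 0.0132 with DESeq2, 0.0217 with library totals, 0.0349 with limma, 0.394 with the covariate, 0.422 with the lone control, and at -0.181 to 0.170 when 1 library was left out. The cause was not tested. Most single circRNAs have few reads, which limits their precision.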
